A study of Saccharomyces cerevisiae with 24 samples.

Results

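The cytosolic ribosome of budding yeast is built from 2 subunits, a large 60S subunit that holds the peptidyl transferase centre and a small 40S subunit that decodes the mRNA. The proteins of the 60S subunit are encoded by *RPL* genes and those of the 40S subunit by *RPS* genes, many of them as A and B copies left by the ancient whole-genome duplication. These genes are among the most transcribed in growing cells. Their promoters are bound by Rap1 and by the forkhead factor Fhl1 with its coactivator Ifh1, and their transcription is raised by TOR and protein kinase A signalling and lowered when nutrients run out. Snf1 is the yeast AMP-activated protein kinase, which acts when glucose becomes scarce.

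The genes described here are 60 cytosolic ribosomal protein genes, taken by ORF name, of the 6692 ORFs in the count table. They comprise 40 *RPL* and 20 *RPS* genes, and all 60 passed the filter on low counts that left 6616 genes for testing. They form 24 A/B pairs and 12 further genes without a copy among the 60, and 77 other cytosolic ribosomal protein genes were kept as a list for comparison. The labelled gene class was checked against the R64 annotation, in which all 60 ORFs carried an *RPL* or *RPS* name.

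Poly(A) RNA was sequenced from 3 haploid strains in the BY4741 background, which carries *his3*∆1, *leu2*∆0, *met15*∆0 and *ura3*∆0. The strains were WT (JS1256), *snf1*∆ (JS1394, *snf1*∆::*kanMX4*) and JS1416, a single bypass suppressor isolate from a screen that carries *snf1*∆ together with *cyc8-G337S*, a change in the co-repressor Cyc8. Each was sampled in log phase, at 24 hr and at 48 hr, in 3 libraries per group except for JS1416, which had 1 library at log and 2 libraries at 24 hr. The sample labels give 5 hr and YPD for the log samples, whereas the methods give a different time and synthetic complete medium, so the medium is not settled. According to the methods, triplicate cultures were grown, without a statement of which library came from which culture, and no spike-in was described, so each value is relative to the other RNAs of its library. Fewer cells holding an RNA and less RNA per cell cannot be told apart in such bulk samples.

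Libraries held 747098 to 29070805 counts, and the lowest count of any of the 60 genes in a library was 23. *SNF1* itself was at 46.2 to 71.7 CPM (counts scaled to the size of the library) in the WT libraries and at 0.182 to 4.08 CPM in libraries of both deleted strains. At 48 hr, 2 libraries stood apart from their labels over all genes. The library labelled *snf1*∆ replicate 3 had a correlation of 0.98 with JS1416 replicate 2 and of 0.90 with either other *snf1*∆ library. The library labelled JS1416 replicate 1 had a correlation of 0.98 with both of those *snf1*∆ libraries and of 0.93 and 0.88 with the other JS1416 libraries. Results at 48 hr are therefore given with and without these 2 libraries.

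The genes lie on 14 chromosomes and encode short proteins, with a median of 198.5 codons against 398 over all 5986 annotated coding genes. An intron interrupted 35 of the 60 (58.3%), against 316 of 5986 coding genes (5.28%). The introns of *RPL7A* and *RPL7B* hold the snoRNA genes *SNR39* and *SNR59*, and no other member overlaps an annotated gene. Reads were aligned with a tool that does not split them at junctions, and how reads over an exon boundary entered the counts of these 35 genes was not tested.

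Copies of a pair are close in sequence, with 85.5% to 99.4% identity over the aligned coding bases. Reads were 75 bases long, and 33 members had at least 1 window of 75 bases that also occurred at another place in the genome, which decides whether the reads of 2 copies can be separated. In 12 members, all in 6 pairs, more than 50% of the windows were shared. Differences between the copies of those 6 pairs are not interpreted below. The ends of 3 pairs are printed here because their copies behaved differently. Each stretch is the last 75 coding bases in the R64 assembly, with bases that differ between the copies in capitals.
RPL9A (chrVII:227754-227828, minus strand): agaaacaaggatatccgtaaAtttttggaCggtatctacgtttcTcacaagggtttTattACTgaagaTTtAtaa
RPL9B (chrXIV:500182-500256, plus strand): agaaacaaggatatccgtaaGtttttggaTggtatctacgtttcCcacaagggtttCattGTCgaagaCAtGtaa
RPS7A (chrXV:506693-506767, plus strand): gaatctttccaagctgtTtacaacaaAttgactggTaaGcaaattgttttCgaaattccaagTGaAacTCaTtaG
RPS7B (chrXIV:443398-443472, minus strand): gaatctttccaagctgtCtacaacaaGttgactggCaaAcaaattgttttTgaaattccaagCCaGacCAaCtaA
RPL14A (chrXI:432646-432720, plus strand): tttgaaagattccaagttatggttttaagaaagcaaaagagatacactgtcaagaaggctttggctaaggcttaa
RPL14B (chrVIII:105017-105091, plus strand): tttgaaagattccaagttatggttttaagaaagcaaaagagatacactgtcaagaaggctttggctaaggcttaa
The *RPL9* ends differ at 10 positions and the *RPS7* ends at 12, so a read from there names its copy. The *RPL14* ends do not differ, and 39.0% of the windows of either *RPL14* copy are shared, so a read from such a window could be placed at either copy.

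The promoters were searched for sequence features that the choice of genes did not use. The Rap1 letters ACCCANACA, where N is any base, were searched on both strands. Within 500 bases before the start codon they occurred at 22 of 60 members (36.7%), against 185 of 5984 genes (3.09%). In a window from 250 bases before to 50 bases after the start codon they occurred at 4 of 60 (6.67%), against 1.47% of 5985 genes. This shorter window was the main setting and that of 500 bases the alternative, so the count depended on the window. What follows uses the window of 500 bases. The Abf1 letters occurred within 500 bases at 4 of 60 (6.67%) against 9.56% of all genes, and the RRPE letters AAAATTTT, which read the same on both strands, at 9 of 60 (15.0%) against 12.4%. All 9 genes with RRPE letters were *RPL* genes, which make up 40 of the 60 members. With a total this near the share of all genes, the split is not read as a trait of *RPL* genes. These are letter matches, not measured binding. The stretches below hold such a match, in capitals, with 24 bases on each side, in the direction of transcription. The first 3 come from pairs whose copies behaved differently, and the other copy, *RPL9B*, *RPL14B* and *RPS7B*, has no match within 500 bases. The last 2 are shown because *RPL8A* and *RPL13A* were among the members that changed most. A match in only 1 copy was not particular to those pairs. It was also seen in *RPL12* and *RPL20*, whose copies' log2 fold changes in WT at 24 hr against log differed by only 0.07 and 0.04. *RPS9*, a pair with unequal copies, had no match in either. Whether matches and copy behaviour go together was not tested.
RPL9A (chrVII:228607-228663, minus strand): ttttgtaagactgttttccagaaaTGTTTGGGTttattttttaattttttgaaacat
RPL14A (chrXI:431472-431528, plus strand): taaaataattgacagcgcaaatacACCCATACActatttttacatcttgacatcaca
RPS7A (chrXV:505297-505353, plus strand): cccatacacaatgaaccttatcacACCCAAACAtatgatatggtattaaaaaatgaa
RPL8A (chrVIII:36232-36288, minus strand): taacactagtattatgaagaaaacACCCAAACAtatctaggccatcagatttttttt
RPL13A (chrIV:308182-308238, plus strand): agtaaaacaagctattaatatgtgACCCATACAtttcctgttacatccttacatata
In *RPL9A* the match is on the opposite strand and begins 310 bases before the start codon. The others begin 410, 473, 239 and 218 bases before it, in the order printed. *RPS7A* and *RPL13A* each hold 1 further match, which begins 498 and 281 bases before the start codon. Members with and without a match in 500 bases had close median changes, for example log2 fold changes of -5.29 (22 genes) and -5.20 (38 genes) in WT at 24 hr against log.

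In log phase the 60 genes took a large share of each library. Their share of all counts was 9.31%, 10.04% and 9.61% in the WT libraries, 7.51%, 7.99% and 7.72% in *snf1*∆, and 9.64% in the JS1416 library. All 3 *snf1*∆ libraries thus lay below the WT libraries, and the single JS1416 library lay within the WT range. At 24 hr the share was 0.236%, 0.218% and 0.196% in WT, 1.30%, 1.55% and 1.76% in *snf1*∆, and 0.744% and 0.718% in JS1416. The order of these shares at 24 hr was therefore *snf1*∆, JS1416 and WT, with no overlap between strains. Shares of raw counts depend on the make-up of the library. With TMM factors, which correct for that, the summed CPM was 11650 and 11090 in JS1416. In *snf1*∆ it was 11730, 14360 and 14710, a narrower gap than in share. At 48 hr the share was 1.03%, 1.28% and 0.831% in WT, 0.509%, 0.510% and 1.10% in *snf1*∆, and 0.604%, 1.12% and 1.60% in JS1416. The strains overlapped at 48 hr, and the high *snf1*∆ value and the low JS1416 value belong to the 2 libraries that stood apart.

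**Figure D1:**
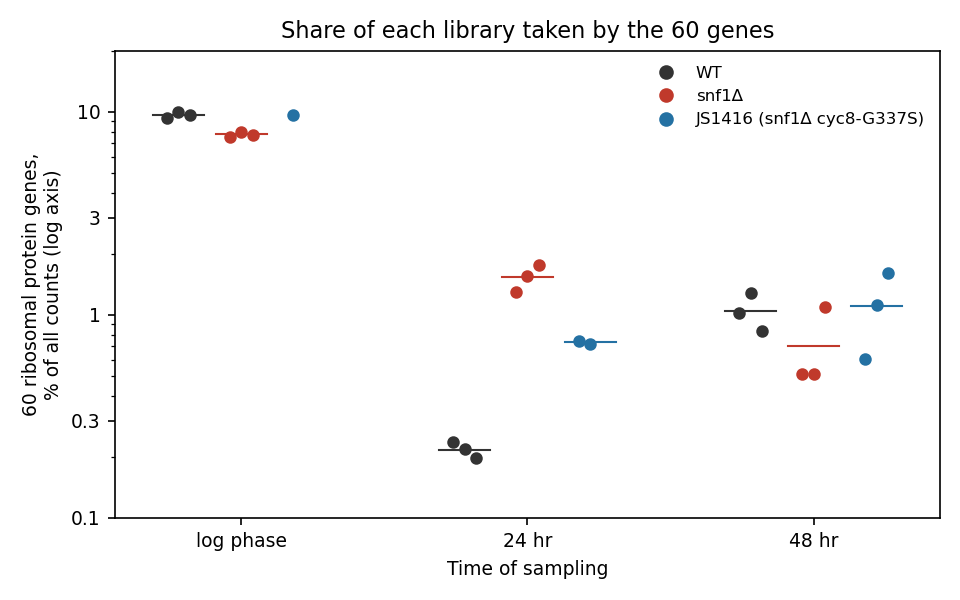
Share of all counts taken by the 60 ribosomal protein genes (log axis, percent), by time and strain, with 1 point per library and a bar at the group mean. The WT libraries lie near 10% in log phase and near 0.2% at 24 hr, while the *snf1*∆ libraries at 24 hr lie between 1.30% and 1.76%.

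The levels of the 60 genes in WT log phase were compared per kilobase of coding sequence, as TMM-normalized CPM per kb (TMM factors correct for differences in library make-up). The median was 1853, and the levels spanned 27.3-fold. *RPS12*, a protein of the 40S beak, was highest at 5955 ± 685 (SD, n = 3), followed by *RPL30*, which controls the splicing of its own transcript, at 5805 ± 319. *RPL32* and *RPL2B* came next at 4841 ± 468 and 4164 ± 284. *RPS9A* was lowest at 219 ± 19, below *RPL18B* at 516 ± 53. Neighbours in this order mostly did not differ beyond their spread, since the libraries overlapped for 53 of 59 neighbouring genes.

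The first comparison asked how the genes changed when WT cells passed from log phase to 24 hr, after glucose is used up. All 60 fell, with a median log2 fold change of -5.26, a 38.3-fold decrease, by edgeR's quasi-likelihood test at an adjusted p under 0.05 over all genes. Over all 6616 genes tested, 38.5% were called lower and 41.2% higher in this comparison, and the median change was 0.10. The 3 libraries at 24 hr lay below all log libraries for all 60 genes, against 41.7% of all genes tested, and 44.5% of all genes lay above without overlap. The level at 24 hr was 2.63% of the log level in the median gene, with a range from 1.45% to 10.5%. *RPL* genes and *RPS* genes had medians of -5.15 and -5.34, and genes with and without an intron had medians of -5.24 and -5.29.

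The steepest decrease was in *RPS1B* (YML063W), a protein of the 40S platform. Its TMM-normalized CPM was 1412, 1680 and 1651 in the log libraries and 28.4, 23.8 and 16.7 at 24 hr. Its log2 fold change was -6.12 ± 0.32 (SE, n = 3 per group, edgeR adjusted p = 4.25e-13). *RPS7A*, which encodes a 40S body protein, followed at -6.09 ± 0.30, and *RPL8A* at -6.03 ± 0.24. At the other end was *RPL9B* (YNL067W), with 319, 298 and 318 CPM in the log libraries and 29.5, 38.4 and 30.4 in the later ones. Its log2 fold change of -3.25 ± 0.16 (edgeR adjusted p = 2.96e-13) was the smallest of the 60. The libraries of the 2 times were far apart for both genes.

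*RPL4A* and *RPL4B* encode a protein that lines the wall of the exit tunnel. They were next to *RPL9B* at -3.41 ± 0.36 and -3.81 ± 0.30. Their copies share 62.2% of windows, so only their joint behaviour is read here. As tallied, *RPL4A* was at 194 ± 31 CPM per kb at 24 hr, a value that depends on how reads were divided with *RPL4B*. It was the third highest level after *RPL30* at 210 ± 21 and *RPS2* at 199 ± 21. These 3 levels did not differ beyond their spread.

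Members with known places on the ribosome showed the decrease at every site. *RPL5* and *RPL11A*, whose products enter the 60S subunit with the 5S rRNA, had log2 fold changes of -4.86 and -5.71, and *RPL11B* one of -5.70. *RPL3* (YOR063W), a protein close to the peptidyl transferase centre, had 3517, 3647 and 3426 CPM at log and 95.3, 87.4 and 71.2 at 24 hr, a log2 fold change of -5.38. *RPL10* (YLR075W), one of the last proteins to join the 60S subunit, had 2248, 2511 and 2377 CPM at log and 118, 113 and 107 at 24 hr, a smaller change of -4.40. The stalk base genes *RPL12A* and *RPL12B* were at -5.30 and -5.23, *RPL25* at the tunnel exit at -5.50, and *RPL30* at -4.79. On the 40S subunit, *RPS3* at the mRNA entry was at -5.81 and *RPS12* at -5.16. All of these genes were called lower.

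In *snf1*∆ the same step from log to 24 hr lowered 59 of the 60 genes, against 30.5% of all genes called lower and 36.5% called higher. The median log2 fold change was -2.41, a 5.30-fold decrease, and the median over all genes was 0.09. All 60 genes lay lower in the 24 hr libraries than in the log libraries without overlap, against 35.8% of all genes. The median level at 24 hr was 18.8% of that at log. The gene that did not pass was *RPL4A* (YBR031W), with 1889, 1859 and 1866 CPM in log phase against 1200, 1380 and 1108 CPM later. Its log2 fold change was -0.61 ± 0.33 (edgeR adjusted p = 0.112), and at 24 hr it kept 65.7% of its log level. The largest decreases were in *RPL9A* at -3.58 ± 0.27, *RPS7B* at -3.31 ± 0.23 and *RPL14A* at -3.18 ± 0.29. The smallest after *RPL4A* were in *RPL4B* at -0.94 ± 0.27 and *RPL10* at -1.62 ± 0.16. With 62.2% of their windows shared, the difference in call between the *RPL4* copies is not read.

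The difference of these responses was tested as a contrast of the same model. It was positive for all 60 genes, against 29.3% of all genes called higher and 25.6% called lower, with a median of 2.83 on the log2 scale and 0.10 over all genes. The largest differences were in *RPS1A* at 3.68 ± 0.26, *RPS3* at 3.61 ± 0.33 and *RPL3* at 3.60 ± 0.37. The smallest were in *RPL14B* at 0.97 ± 0.31, *RPL9B* at 1.37 ± 0.21 and *RPS7B* at 1.59 ± 0.30, which are all B copies and lack the Rap1 letters described above, as do 38 of the 60 members. These 3 genes were noticed after their values were seen, and no test of the shared feature was made.

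**Figure D2:**
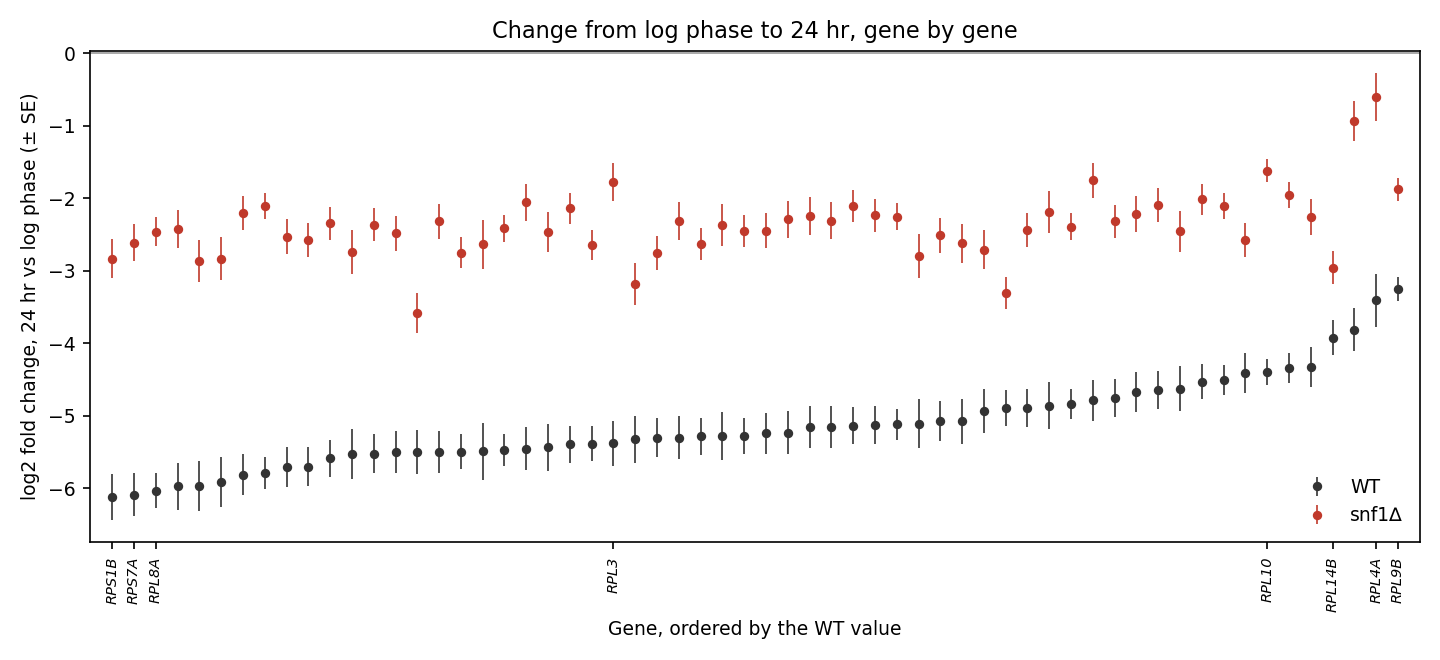
Log2 fold change from log phase to 24 hr for each of the 60 genes in WT and in *snf1*∆, with standard errors (n = 3 libraries per group). Genes are ordered by the WT value, and 8 of those described in the text are named on the axis. The WT values run from -6.12 to -3.25 and the *snf1*∆ values from -3.58 to -0.61.

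At 24 hr itself all 60 genes were higher in *snf1*∆ than in WT, against 33.7% of all genes called higher and 30.3% called lower. The median log2 fold change was 2.45, a 5.45-fold difference, and the median over all genes was 0.10. *RPL3* had 95.3, 87.4 and 71.2 CPM in WT and 773, 935 and 876 CPM in *snf1*∆, the largest difference at 3.35 ± 0.28 (edgeR adjusted p = 2.72e-09). *RPS1A* (YLR441C) had 24.0, 19.3 and 18.4 CPM in WT and 158, 170 and 250 CPM in *snf1*∆, a difference of 3.24 ± 0.20. *RPL13A* (YDL082W) had 9.36, 7.64 and 8.51 CPM in WT and 70.5, 77.02 and 85.6 CPM in *snf1*∆, a difference of 3.20 ± 0.30. For these genes every *snf1*∆ library lay far above every WT library.

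The smallest difference was in *RPL14B* (YHL001W), a 60S protein gene, with 40.9, 39.1 and 34.9 CPM in WT and 38.7, 68.7 and 61.5 CPM in *snf1*∆. It was the 1 member of 60 whose libraries overlapped between the strains at 24 hr, against 39.5% of all genes that lay higher without overlap. Its log2 fold change was 0.56 ± 0.22 (edgeR adjusted p = 0.0328). *RPL9B* followed at 0.998 ± 0.16 and *RPS7B* at 1.36 ± 0.22. Among the genes named by role, *RPS3* had 35.4, 32.1 and 27.6 CPM in WT against 202, 296 and 345 in *snf1*∆, and *RPL5* 91.8, 78.0 and 75.1 against 358, 437 and 404. Their differences were 3.15 and 2.29, and those of the other role genes lay between 2.15 in *RPL12A* and 2.77 in *RPL11A* besides *RPL3*.

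**Figure D3:**
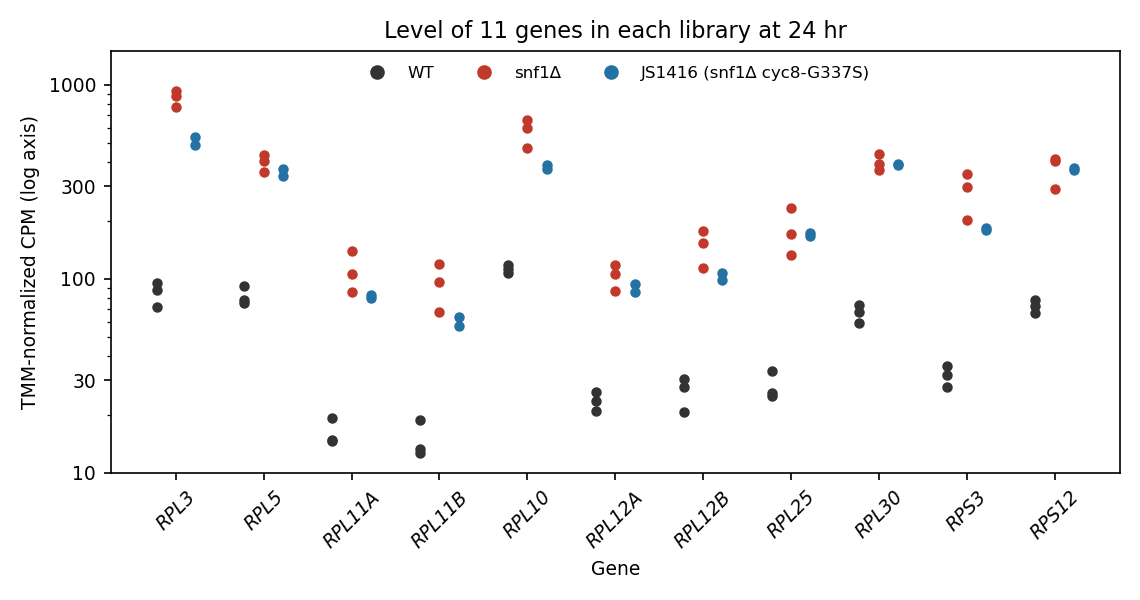
TMM-normalized CPM (log axis) of 11 genes with known places on the ribosome in each library at 24 hr. Points are libraries, 3 for WT, 3 for *snf1*∆ and 2 for JS1416. The WT libraries of each gene lie below all libraries of the 2 deleted strains, for *RPL3* at 71.2 to 95.3 against 492 and above.

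In log phase the same comparison gave no member called in the fit of all 24 libraries, where 0.423% of all genes were called lower and 1.69% higher. The values were low in nearly every gene, with 59 of 60 negative, a median log2 fold change of -0.40 and a median of -0.04 over all genes. At an unadjusted p under 0.05, 13 members were lower, and DESeq2 called 2 lower, with the share of all genes not given for either. The *snf1*∆ libraries lay below all WT libraries for 56 of 60 members, against 20% of all genes, with 14.8% of all genes above. *RPL8A* (YHL033C) had 633, 718 and 704 CPM in WT and 429, 459 and 479 CPM in *snf1*∆, a log2 fold change of -0.59 ± 0.19 (edgeR adjusted p = 0.165). *RPL9A* was at -0.55 ± 0.25 and *RPS9B* at -0.53 ± 0.27. The value farthest in the other direction was *RPS9A* at 0.14 ± 0.22. The number of members called moved with the libraries that set the spread, and less with the pairing. Same-numbered WT and *snf1*∆ libraries at log deviated together, with correlations of 0.33, 0.51 and 0.13. With the replicate number as a block in a fit of these 2 groups alone, 59 members were lower and 1 higher, with a median of -0.36, against 17.1% and 17.6% of all genes. With the block in the fit of all groups, 0 were called. Without a block, the fit of these 2 groups alone called 52 lower, and the fit of all groups without the 2 libraries that stood apart at 48 hr called 13 lower. For these last counts the share of all genes is not given, so they are not read as particular to the members.

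JS1416 was compared with WT at 24 hr to ask how close the suppressor isolate came to WT. All 60 genes were still higher in JS1416 than in WT, against 20.2% of all genes called higher and 22.7% called lower, with a median log2 fold change of 2.13. Among the largest differences were *RPS7A* at 2.82 ± 0.28 and *RPL2B* at 2.66 ± 0.28. *RPS7A* had 14.0, 13.3 and 14.1 CPM in WT and 102 and 92.6 CPM in JS1416, far apart. The smallest differences were in *RPL14B* at 0.74 ± 0.24, *RPS7B* at 1.02 ± 0.24 and *RPL9A* at 1.18 ± 0.29. Under library size alone 58 of the 60 were called, and *RPL14B* at 0.35 and *RPL9A* at 0.79 did not pass (edgeR adjusted p = 0.382 and 0.0755). No library of JS1416 reached down to a WT library for any of the 60 genes, against 34.2% of all genes that lay higher without overlap.

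Between JS1416 and *snf1*∆ at 24 hr, 8 genes were lower and 1 was higher, against 27.4% of all genes called lower and 20.1% called higher. The share of members called was thus below that of all genes. JS1416 lay below *snf1*∆ without overlap for 25 members and above it for 3, against 43.6% and 31.5% of all genes. The genes that were lower were *RPL13A*, *RPL15A*, *RPL3*, *RPS1A*, *RPL11B*, *RPS3*, *RPL10* and *RPL8A*. *RPL11B* at -0.65 is not set apart from its copy *RPL11A* at -0.45, as 55.9% of their windows are shared. *RPL13A* had 70.5, 77.02 and 85.6 CPM in *snf1*∆ and 36.5 and 35.7 CPM in JS1416, a log2 fold change of -1.11 ± 0.30 (edgeR adjusted p = 0.00456). *RPL15A* had 354, 406 and 463 CPM in *snf1*∆ and 209 and 218 CPM in JS1416, a change of -0.93 ± 0.24. *RPL3* was at -0.74 ± 0.29, with 539 and 492 CPM in JS1416, below every *snf1*∆ library. This call was lost, at -0.64 to -0.70, with RLE factors, with TMM factors computed without ribosomal protein genes, with a filter of 10 counts in every library, with DESeq2 and with the replicate block, where the adjusted p was 0.0565 to 0.0901. The higher gene was *RPL9B*, with 59.4, 65.1 and 71.8 CPM in *snf1*∆ and 101 and 95.8 CPM in JS1416, a change of 0.59 ± 0.17 (edgeR adjusted p = 0.0065). *RPL18B* was at 0.19 ± 0.29 and did not pass. *RPS12* and *RPL30* had values of -0.01 and -0.04 with overlapping libraries.

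This comparison rests on the scaling more than the others. The 10 most abundant genes took 26.1% to 26.5% of counts in JS1416 at 24 hr and 20.4% to 21.9% in *snf1*∆, and the TMM factors were 0.639 to 0.647 against 1.08 to 1.20. With TMM the median was -0.24 over the members and -0.16 over all genes. With library size alone both medians moved, to -1.05 and -0.98, and 51 members were called lower and 0 higher, against 66.3% and 7.56% of all genes. Relative to the median of all genes the members were 0.07 lower under either scaling. A change of scaling moves all genes by nearly the same amount, so this agreement was fixed in advance and is no check on the scaling. *RPL9B* was at -0.23 under library size alone, which for the same reason is still above the median of all genes there.

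The single JS1416 library at log allowed no test of its response. The 24 hr mean minus the log value had a median of -3.24 on the log2 scale, from -4.52 to -0.95, and 59 of 60 genes were past a 2-fold decrease, against 27.1% of all genes. *RPL4A* was the gene at -0.95, with 1997 CPM in the log library and 1079 and 986 CPM later. Its copy *RPL4B* was at -1.26, and the 2 are not set apart, as 62.2% of their windows are shared. On the log2 scale at 24 hr, with *snf1*∆ set to 0 and WT to 1, the JS1416 value of the median gene was at 0.09, with quartiles of 0.03 and 0.16. This position depends on the scaling: with TMM the median differences from WT were 2.45 in *snf1*∆ and 2.13 in JS1416, and under library size alone they were 2.87 and 1.74, which puts JS1416 farther from *snf1*∆. With TMM the full range over genes was -0.60 in *RPL9B* to 0.42.

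From 24 hr to 48 hr all 60 genes rose in WT, whereas in *snf1*∆ most calls were of lower genes; the difference between the strains in this step was not tested. In WT 19.6% of all genes were called higher and 19.8% lower, and the members had a median log2 fold change of 1.95 and one of -0.02 over all genes. The level at 48 hr was 10.8% of the log level in the median gene, so most of the decrease remained. The largest rises were in *RPL8A* at 3.04 ± 0.22, *RPS7A* at 2.94 ± 0.27 and *RPS1B* at 2.76 ± 0.28, the 3 genes with the steepest decrease before, and both comparisons share the 24 hr libraries. *RPL8A* went from 14.9, 10.3 and 6.78 CPM to 82.7, 96.7 and 77.8 CPM. *RPL4A* rose least at 0.96 ± 0.34, followed by *RPL16B* at 1.03 ± 0.27 and *RPL9A* at 1.05 ± 0.27. The 48 hr libraries lay above all 24 hr libraries for all 60 genes, against 27.2% of all genes.

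In *snf1*∆, 32 members were lower at 48 hr than at 24 hr and 1 was higher, against 21.5% and 19.8% of all genes, with a median log2 fold change of -0.59. Without the 2 libraries that stood apart, 48 were lower and 1 higher, with a median of -0.87, against 27.8% and 26.2% of all genes. That fit leaves 2 *snf1*∆ libraries at 48 hr, which were kept because they resembled each other, so its counts describe the retained libraries. With all libraries, 28 members lay lower at 48 hr without overlap and 1 higher, against 24.2% and 20.1% of all genes. *RPL3* changed most, from 773, 935 and 876 CPM to 191, 183 and 362 CPM, where the last value is the library that stood apart. Its change was -1.81 ± 0.26, and -2.21 ± 0.17 without those libraries. *RPL4A* and *RPL4B* followed at -1.47 ± 0.34 and -1.23 ± 0.27. The higher gene was *RPL9B*, with 88.6, 85.4 and 99.2 CPM at 48 hr and a change of 0.48 ± 0.16 (edgeR adjusted p = 0.0188). Under library size alone *RPL9B* was at 0.05 (edgeR adjusted p = 0.882) and no member was called higher. *RPL14B* and *RPL14A* were at 0.34 ± 0.23 and 0.14 ± 0.28 and did not pass. The count was 16 without *snf1*∆ replicate 1 at 48 hr, 17 without its replicate 2 or without *snf1*∆ replicate 3 at 24 hr, 19 without *snf1*∆ replicate 2 at 24 hr, and 11 in a fit of these 2 groups alone. Shares of all genes in those fits are not given.

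At 48 hr *snf1*∆ and WT differed in 1 member, *RPL8A*, against 17.7% of all genes called lower and 18.1% called higher. It had 82.7, 96.7 and 77.8 CPM in WT and 46.1, 44.0 and 54.1 CPM in *snf1*∆, a log2 fold change of -0.83 ± 0.20 (edgeR adjusted p = 0.00352). *RPS1B* and *RPS0A* were at -0.62 ± 0.26 and -0.58 ± 0.23, and *RPL30*, *RPL1A* and *RPL18B* at 0.44 ± 0.24, 0.36 ± 0.18 and 0.32 ± 0.28, all without passing. The median was -0.12, and the libraries overlapped for 58 members, where 21.3% of all genes lay lower and 18.4% higher without overlap. Without the 2 libraries that stood apart, 28 members were lower and 0 higher, against 26.5% and 25% of all genes, with a median of -0.38, and *RPL3* was then at -0.81 ± 0.16. This fit leaves 2 *snf1*∆ libraries, which were kept because they resembled each other, so its counts describe the retained libraries. Leaving out *snf1*∆ replicate 3 alone gave 13 calls, leaving out WT replicate 3, JS1416 replicate 1 or JS1416 replicate 3 at 48 hr gave 4 each, and leaving out *snf1*∆ replicate 3 at 24 hr gave 2. For these fits the share of all genes is not given, so the counts are not read as particular to the members.

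JS1416 and *snf1*∆ at 48 hr differed in no member under edgeR or DESeq2, and 0% of all genes were called in either direction. At an unadjusted p under 0.05, edgeR gave 30 members and DESeq2 33, with a median log2 fold change of 0.54. The share of all genes at that unadjusted threshold is not given, so these counts are not read as a difference between the strains. The libraries overlapped for 57 members, and JS1416 lay above *snf1*∆ for 3 and below for 0, against 2.22% and 1.16% of all genes. *RPS9B*, *RPL11A* and *RPL17A* were highest at 0.80 ± 0.29, 0.77 ± 0.24 and 0.77 ± 0.26. *RPS7B*, *RPS1A* and *RPL19A* were lowest at -0.04 ± 0.23, 0.09 ± 0.18 and 0.14 ± 0.18. Without the 2 libraries that stood apart, 50 members were higher and 0 lower, against 21.8% and 24% of all genes, with a median of 0.99. This fit leaves 2 libraries in each of these strains, chosen after the resemblance between libraries was seen, so its counts describe the retained libraries. Over all genes, the retained *snf1*∆ libraries had a correlation of 0.972 with each other. The retained JS1416 libraries had one of 0.945, and JS1416 replicate 2 had one of 0.951 with WT replicate 2. Leaving out JS1416 replicate 1 alone gave 42 calls, and leaving out *snf1*∆ replicate 3 alone gave 20. How many of all genes those fits called is not given, so these counts are not read as particular to the members.

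The library values at 48 hr show how the members divided. Relative to the WT mean at 48 hr, the median log2 level of the 60 genes was -0.43 and -0.36 in *snf1*∆ replicates 1 and 2 and 0.15 in replicate 3. It was -0.21 in JS1416 replicate 1 and 0.23 and 0.81 in replicates 2 and 3. The 3 WT libraries were at -0.02, 0.20 and -0.23. *RPL3* is an example, with 191, 183 and 362 CPM in *snf1*∆ and 215, 385 and 498 CPM in JS1416. Its *snf1*∆ replicate 3 and JS1416 replicate 1 lay with the libraries of the other label. All 60 genes were above the WT mean in JS1416 replicate 3, which was also the library of the lowest depth, 747098 counts.

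**Figure D4:**
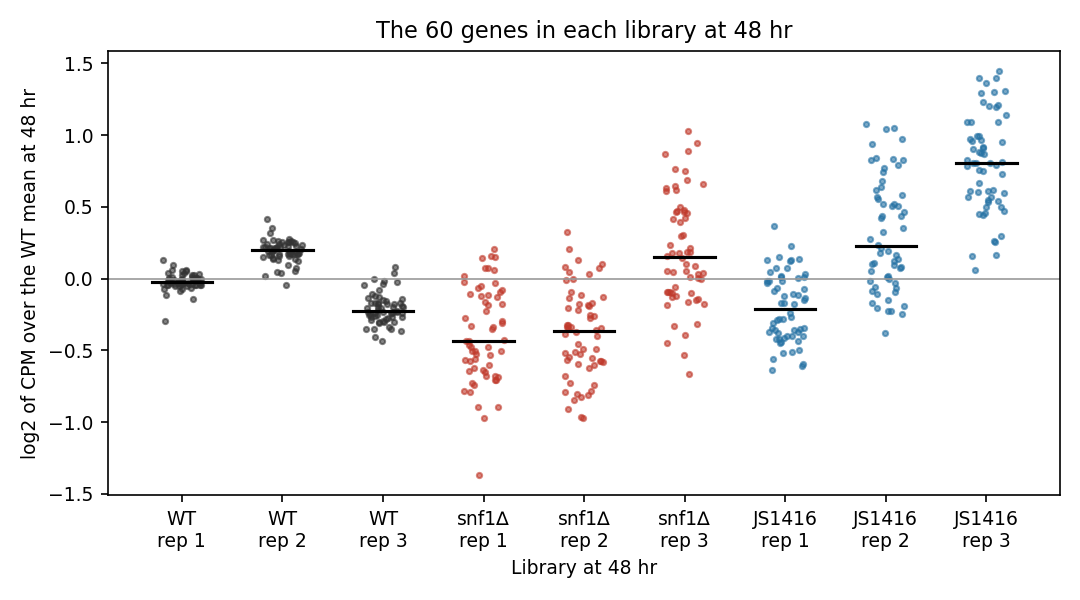
Log2 of the TMM-normalized CPM of the 60 genes over the mean of the WT libraries at 48 hr, in each library at 48 hr. Points are genes and bars are medians. The medians of the *snf1*∆ libraries are -0.43, -0.36 and 0.15, and those of JS1416 are -0.21, 0.23 and 0.81.

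Copies of a pair were also compared within each library, as the log2 of the A count over the B count, which does not depend on how libraries are scaled. Among all 24 pairs, the copies' log2 fold changes in WT from log to 24 hr differed by a median of 0.38 in size, and 4 pairs differed by more than 1. The 3 largest differences among the 18 pairs with under 50% of windows shared were in *RPL9*, *RPS9* and *RPL14*. *RPS7*, the fourth, is described as well and was chosen after its values were seen. Each exact permutation test of 3 against 3 libraries below was two-sided and cannot go below p = 0.1, and 16 such comparisons were made. With no comparison able to pass after adjustment, only the separation of the libraries is described. Such separation was common: between log and 24 hr the ratios did not overlap in 14 of the 24 pairs in WT and in 13 in *snf1*∆, and between the strains they did not overlap in 4 pairs at log and in 14 at 24 hr.

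In *RPL9* the copy with more counts was not the same at both times. The log2 ratio of *RPL9A* to *RPL9B* was 1.41, 1.74 and 1.62 in the WT log libraries and -0.39, -1.04 and -0.52 at 24 hr, so the A copy had 3.01 times the counts of the B copy at log and 0.638 times at 24 hr. In *snf1*∆ it went from 1.32, 1.45 and 1.46 to -0.76, -0.32 and 0.01. In both strains the ratio was led by A at log and was near or below equal counts at 24 hr, and the exact permutation p was 0.1 in each. The strains overlapped at 24 hr, with an exact permutation p of 0.4. The ratio stayed below 0 in every library at 48 hr.

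In *RPL14* the times separated in WT. The log2 ratio of *RPL14A* to *RPL14B* was 0.93, 1.05 and 0.90 at log and -0.37, -0.44 and -0.52 at 24 hr. In *snf1*∆ it was 0.93, 1.03 and 0.90 at log and 0.95, 0.64 and 0.69 at 24 hr, where the libraries of the 2 times overlapped. The JS1416 libraries at 24 hr, at 0.71 and 0.77, lay within the *snf1*∆ range. All WT libraries at 24 hr were below all *snf1*∆ libraries, a difference of 1.20 (exact permutation p = 0.1).

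*RPS7* separated in opposite directions. The log2 ratio of *RPS7A* to *RPS7B* was 0.65, 1.14 and 0.61 in WT at log and -0.70, -0.51 and 0.04 at 24 hr. In *snf1*∆ it was 0.60, 0.89 and 0.45 at log and 1.18, 1.35 and 1.42 at 24 hr. At 24 hr it was lower in WT and higher in *snf1*∆ than at log, without overlap between the times, each with an exact permutation p of 0.1, and the strains differed by 1.71 at 24 hr. By 48 hr the WT ratio was 1.13, 1.10 and 1.23. In CPM the WT change at 24 hr was one of steeper loss of the A copy, to 14.0, 13.3 and 14.1, below the B copy in 2 of 3 libraries.

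*RPS9*, a 40S protein that affects decoding accuracy, was the pair with the most different levels. *RPS9A* had 118, 140 and 132 CPM in WT at log, and *RPS9B* had 1331, 1568 and 1460. The log2 ratio of A to B was -3.50, -3.49 and -3.46 in WT at log and -3.01, -2.77 and -2.68 in *snf1*∆. The log libraries of the strains did not overlap, a difference of 0.66 (exact permutation p = 0.1). The JS1416 log library, which also lacks *SNF1*, was at -3.59, on the WT side. At 24 hr the ratio was -1.75, -2.12 and -1.82 in WT, whereas in *snf1*∆ it was -2.38, -2.85 and -2.41 and overlapped its log values. At 48 hr it was -1.60, -1.73 and -3.20 in *snf1*∆ and -1.80, -3.12 and -2.98 in JS1416, with the 2 libraries that stood apart again on the side of the other label.

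**Figure D5:**
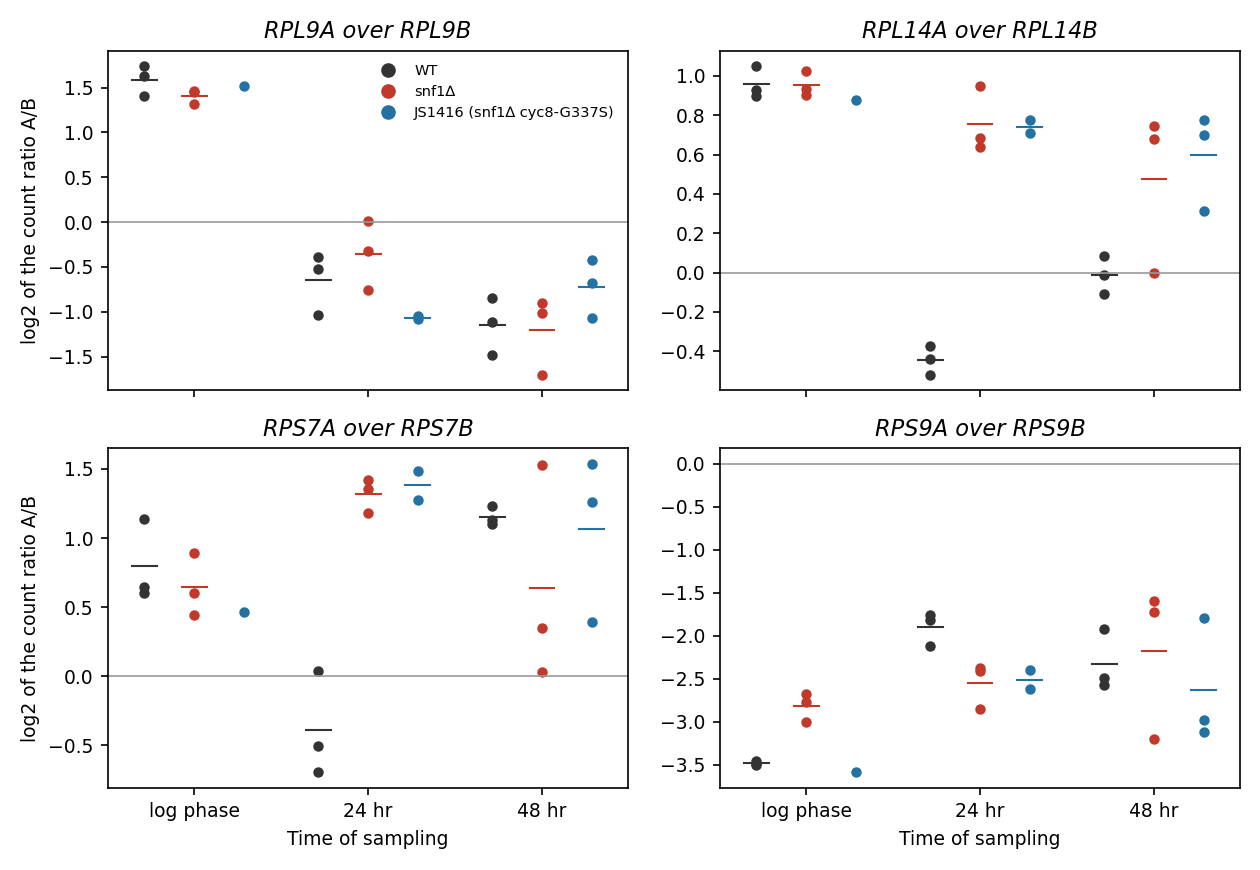
Log2 of the count ratio of the A copy to the B copy of 4 pairs, by time and strain. Points are libraries and bars are group means, and the 4 panels have separate vertical axes. In WT at 24 hr the *RPL9*, *RPL14* and *RPS7* means are below 0, at -0.65, -0.45 and -0.39, while *RPS7* in *snf1*∆ is at 1.32.

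The other genes of protein synthesis were read from lists. Of the 77 other cytosolic ribosomal protein genes, 77 fell from log to 24 hr in WT with a median of -5.03, and 77 fell in *snf1*∆ with a median of -2.43. At 24 hr, 72 of them were higher in *snf1*∆ than in WT and 1 was lower, with a median of 2.26. The lower gene was *RPS27A* at -0.90 ± 0.25. *RPL15B*, the copy of the member *RPL15A*, fell less than any of the 60 members in WT. It had 87.2, 173 and 94.1 CPM in log phase and 21.6, 23.4 and 24.7 CPM later, a log2 fold change of -2.34 ± 0.27. Its difference between *snf1*∆ and WT at 24 hr was 1.04 ± 0.27 (edgeR adjusted p = 0.0023).

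The 20 ribosome biogenesis factors all fell from log to 24 hr in WT, with a median of -4.44, and in *snf1*∆, with a median of -1.69. *NOP56*, a core protein of box C/D snoRNPs, was at -6.52 and -2.71. At 24 hr 19 of 20 were higher in *snf1*∆ than in WT, led by *NOP56* at 3.51. In JS1416 relative to *snf1*∆ at 24 hr, 18 of the 20 were lower and 0 higher, where 8 of the 60 members and 27.4% of all genes were lower. Their median was -1.32, where that of all genes was -0.16. Whether the lists differ was not tested. Of 11 dedicated chaperones of ribosomal proteins, 10 fell in WT and 10 in *snf1*∆ from log to 24 hr, with medians of -2.50 and -0.82, led in WT by *TSR2*, the chaperone of Rps26, at -4.42. Of 10 translation elongation factor genes, 9 fell and 1 rose in WT, led by *YEF3*, which encodes elongation factor 3, at -4.63.

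Mitochondrial ribosomal protein genes were taken by names that begin with *MRPL* or *MRPS*, so genes of this class with other names are not covered. Of these 43 genes, 12 rose and 15 fell in WT from log to 24 hr, where 41.2% of all genes rose and 38.5% fell. Their median was 0.01. At 24 hr 8 were higher and 24 lower in *snf1*∆ than in WT, where 33.7% of all genes were higher and 30.3% lower. Among 13 regulators of ribosomal protein genes, 6 rose and 3 fell in WT from log to 24 hr, beside the same 41.2% and 38.5% of all genes. *DOT6*, a repressor of ribosome biogenesis genes, rose by 3.51 on the log2 scale and *YAK1*, a kinase that opposes growth, by 2.99, while *FHL1* was at -1.54. In *snf1*∆ 4 rose and 6 fell, beside 36.5% and 30.5% of all genes, with *ABF1* at 1.73, *YAK1* at 1.67 and *RAP1* at -1.23. At 24 hr 7 were lower and 1 higher in *snf1*∆ than in WT, with *DOT6* at -2.06, *YAK1* at -1.29 and *ABF1*, the higher one, at 1.67. Between JS1416 and *snf1*∆ at 24 hr, 3 were higher and 3 lower, shares close to the 20.1% and 27.4% of all genes, with *ABF1* at -1.79, *DOT6* at 1.54 and *HMO1* at 1.51.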

How the data were processed

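The authors aligned 75-base single-end reads of poly(A) RNA with Bowtie2 (sacCer3) and tallied them per ORF with bedtools (versions, strand option and mapping-quality filter not given in the sources used here). The values are the raw counts per ORF that the authors deposited, without normalization. The 60 genes and all lists were chosen with earlier results of these data known. The test for all 6692 ORFs was fitted with edgeR 4.0.16 under R 4.3.3: TMM, the low-count filter by group (6616 genes), 1 quasi-likelihood model of 9 groups and 24 libraries, and Benjamini-Hochberg adjustment over all genes tested, called at an adjusted p under 0.05. DESeq2 1.42.0 was an alternative. Levels are TMM-normalized CPM, and copy ratios used counts with a pseudocount of 0.5. Depth was 747098 to 29070805 counts per library, so even low members had at least 23 counts. p-values measure the spread between libraries, which may be partly technical. No pair of replicates agreed within sampling noise. Sequences are from the R64 assembly (sacCer3 is UCSC's name for it), read with Biopython 1.88. The code was tested on simulated data. Named per comparison were the 3 members with the highest and the 3 with the lowest log2 fold change, members called against the majority, the 3 most unequal pairs in WT at 24 hr with under 50% of windows shared, the pair with the most different levels, genes by role, *RPL15B* and at most 3 genes per list. Alternatives were other scalings, filters, tools, sample sets and replicate blocks, and fits that each omit 1 library. The pairing of replicate numbers was checked by the correlation of deviations from the group means, which was 0.33, 0.51 and 0.13 for WT and *snf1*∆ at log, over 0.1 in every pair there. No column of the table was left unused (0). A few items that these rules name are not reported here.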

Additional observations from a re-analysis of the deposited data

Results flagged for a closer look

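The change from log phase to 24 hr differed between *snf1*∆ and WT in all 60 genes, by the contrast of the 2 responses in the same model (edgeR adjusted p under 0.05). Over all genes tested, 29.3% were called higher and 25.6% lower in this contrast. Of the genes with the smallest and largest difference, *RPL14B* was at 0.97, *RPL9B* at 1.37, *RPS7B* at 1.59, *RPL3* at 3.60, *RPS3* at 3.61 and *RPS1A* at 3.68 on the log2 scale. All of these were smaller decreases in *snf1*∆.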

How the results depend on the processing

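Of 594 values of named genes under alternatives, 565 kept their direction and side of the threshold, 8 were no longer called (*RPL3* in JS1416 vs *snf1*∆ at 24 hr under 5 alternatives, and *RPL9B*, *RPL14B* and *RPL9A* each once with library size alone), 20 were newly called and 1 reversed, *RPL9B* in JS1416 vs *snf1*∆ at 24 hr, at -0.227 with library size alone, a setting that moves the median of all genes there from -0.16 to -0.98. The cause was not tested for any change below unless stated. Counts of calls below are of members alone, here without the share of all genes in the same fit. They are therefore not read as particular to the members, since calls over all genes move between fits too. For *snf1*∆ vs WT at log, the main fit called 0.423% of all genes lower and 1.69% higher. With the replicate block in those 2 groups alone, these shares were 17.1% and 17.6%. Leaving out each library gave 59 to 60 calls in *snf1*∆ at 24 hr vs log, WT at 48 hr vs 24 hr, *snf1*∆ vs WT at 24 hr and JS1416 vs WT at 24 hr, and 60 in WT at 24 hr vs log and in the difference of responses. It gave 16 to 42 in *snf1*∆ at 48 hr vs 24 hr (33 with all libraries), 0 in *snf1*∆ vs WT at log, 1 to 13 in *snf1*∆ vs WT at 48 hr, 3 to 11 in JS1416 vs *snf1*∆ at 24 hr and 0 to 42 in JS1416 vs *snf1*∆ at 48 hr.

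*snf1*∆ at 48 hr vs 24 hr gave 11 calls with only the groups compared and 7 with a replicate block there. *snf1*∆ vs WT at log (0 calls) gave 2 with DESeq2, 52 with only the groups compared, 60 with the replicate block there, 13 without the libraries that stood apart and 22 with all 48 hr libraries left out, an alternative chosen after seeing the data. *snf1*∆ vs WT at 48 hr (1 call) gave 24 with library size alone, 3 with TMM factors computed without ribosomal protein genes, 4 with genes of at least 10 counts in every library, 2 with DESeq2, 2 with the replicate number as a block, 0 with the block in these groups only and 28 without the libraries that stood apart.

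JS1416 vs *snf1*∆ at 24 hr (9 calls) gave 5 each with RLE factors, TMM without ribosomal protein genes, the filter of 10 counts and the replicate block. It gave 51 with library size alone, 16 with only these groups, 19 without the libraries that stood apart and 18 with 48 hr left out. JS1416 vs *snf1*∆ at 48 hr (0 calls) gave 50 without the libraries that stood apart. Of the groups compared, only WT and *snf1*∆ at log had all same-number correlations above 0.1, and elsewhere the shared number is only a number. A block within JS1416 and *snf1*∆ at 24 hr alone was not run, as those groups share 2 numbers. The 2 libraries at 48 hr and the low depth of JS1416 replicate 3 limit all 48 hr comparisons.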
